A study of Mus musculus with 6 samples.

Results

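The interleukin receptor chains examined here were Il7r, Il2rg, Il4ra, Il6ra, Il6st, Il10ra, Il10rb, Il13ra1, Il17ra and Il21r. They were chosen by gene symbol, and all 10 were measured among the 16503 genes of the table. Expression was measured by RNA-seq in liver macrophages sorted as Tim4- CD11b+ Ly6Clo F4/80+ cells from wild type (WT) mice fed CDA-HFD, a choline-deficient high-fat diet that induces metabolic dysfunction-associated steatohepatitis (MASH). CD11chiMinclehi macrophages and CD11cloMinclelo macrophages were separated by surface CD11c and Mincle, with 3 libraries of each. The study asked with this sort whether the former correspond to hepatic lipid-associated macrophages (hLAMs) and the latter to monocyte-derived Kupffer cells (moKCs). Both groups carried the same genotype and diet, the age of the mice is not given in the labels, and a sort on these surface proteins returns populations of cells, not single clones or cell types. In such bulk samples, fewer cells of a type and less RNA per cell cannot be told apart.

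Interleukin receptors are built from chains that pair at the cell surface, and many chains are shared. Il2rg encodes the common gamma chain, which joins the chains encoded by Il7r, Il4ra and Il21r to form the receptors for IL-7, IL-4 and IL-21. Il4ra also pairs with Il13ra1 in the receptor through which IL-13 acts, Il6ra hands IL-6 to the signaling chain gp130 encoded by Il6st, and Il10ra needs Il10rb. Most of these receptors signal through Janus kinases (JAKs) and STAT transcription factors, whereas Il17ra signals through an adaptor of its own. In macrophages IL-4 and IL-13 are known for alternative activation and IL-10 for restraining inflammatory output, while Il7r is best known from lymphocytes.

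Depth was estimated at 7.01 M (M for mega) to 8.11 M reads per library. The members drew between 136 estimated reads, for Il7r in one CD11cloMinclelo library, and 2561, for Il10ra. Levels are given in TPM, a transcript abundance scaled by gene length and by the library total, for replicates 1, 2 and 3, with the CD11chiMinclehi libraries first. Fold changes are CD11chiMinclehi minus CD11cloMinclelo in log2(TPM + 1), each followed by its standard error. Adjusted p-values are from limma with Benjamini-Hochberg adjustment over all genes, and a gene was called at an adjusted p under 0.05. The gate gene Itgax, which encodes CD11c, was higher in the CD11chiMinclehi libraries by 0.83 ± 0.06 with an adjusted p of 0.00467 in limma. Clec4e, which encodes Mincle, differed by 0.22 ± 0.16 and did not pass (adjusted p = 0.655 in limma). Macrophage markers of the fixed list summed to between 3774 and 3876 TPM in the CD11chiMinclehi libraries and to between 3705 and 4145 TPM in the others. None of these 8 markers passed in limma without a replicate block, where 1 was higher and 2 were lower at an unadjusted p under 0.05. With the block Adgre1, which encodes F4/80, and Fcgr1 were called lower (adjusted p = 0.0422 and 0.0464 in limma).

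Of the 10 receptor chains only Il7r passed in limma without a replicate block, and it rose in CD11chiMinclehi macrophages. Over all genes limma called 1.22% in either direction, 0.77% as higher and 0.454% as lower. None of the 10 chains was called as lower in limma, and at an unadjusted p under 0.05 there were 1 higher and 2 lower, against 12.9% of all genes in either direction (1063 higher and 1065 lower). The 9 other chains were 0.04 to 0.32 lower on the log2 scale or, for Il2rg, 0.11 higher. In all, 8 of the 10 differences were below 0, against 51.9% of all genes. The median difference of the 10 chains was -0.14, and that of all genes was -0.01. For 5 chains every library of one group lay beyond every library of the other, as it did for 18.5% of all genes. The share was 21.5% at 50 to 100 TPM, where Il7r and Il6ra lay. It was 26.3% at 100 to 200 TPM, with Il4ra and Il13ra1, and 32.1% at 200 to 400 TPM, with Il10ra. Of the 5 chains, Il7r was higher and Il4ra, Il6ra, Il10ra and Il13ra1 were lower in CD11chiMinclehi macrophages. Over all genes, 9.22% were lower in this way.

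**Figure D1:**
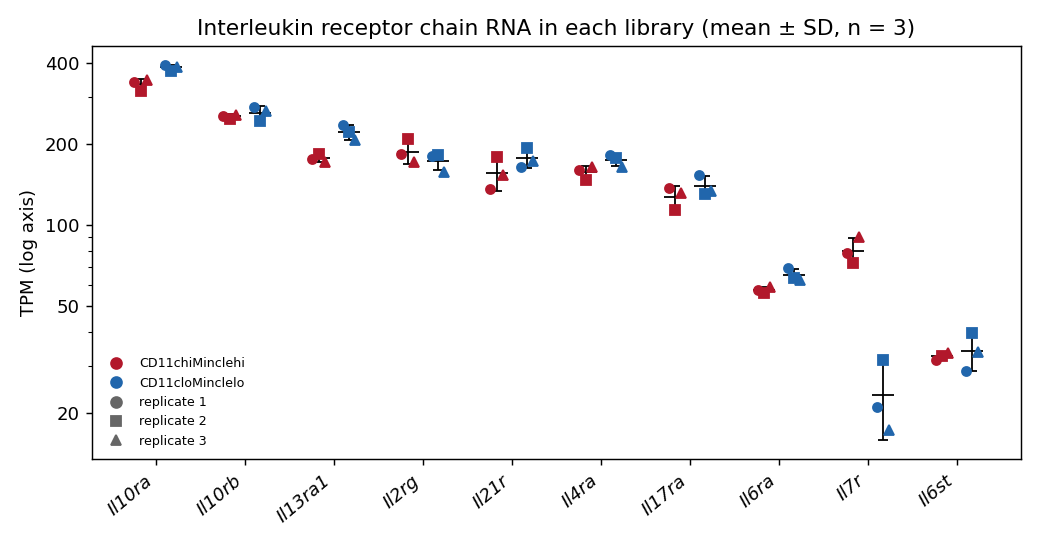
Level of each receptor chain in TPM (log axis) in the 3 CD11chiMinclehi and the 3 CD11cloMinclelo libraries. Each point is 1 library, and bars give the mean and SD of a group. Il7r lay between 72.3 and 90.3 TPM in CD11chiMinclehi libraries and between 17.2 and 31.6 TPM in CD11cloMinclelo libraries, whereas the points of the other chains lay close together.

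The level of Il7r, the alpha chain that binds IL-7, was 78.7, 72.3 and 90.3 TPM in CD11chiMinclehi libraries and 21.0, 31.6 and 17.2 TPM in CD11cloMinclelo libraries. Every CD11chiMinclehi library was above every CD11cloMinclelo library. The difference was 1.78 ± 0.22, with a 95% confidence interval of 1.28 to 2.29 and an adjusted p of 0.0184 in limma. Within the numbered pairs, Il7r was 3.75, 2.29 and 5.24 times as high in the CD11chiMinclehi library. Among the 119 called rises with a mean of at least 10 TPM, that of Il7r was the 13th largest by log2 fold change. The call was retained without replicate 2 of CD11cloMinclelo (adjusted p = 0.0246 in limma) and was lost without any other single library. Those adjusted p-values in limma were 0.0910, 0.0665 and 0.0535 without CD11chiMinclehi replicates 1, 2 and 3, and 0.0660 and 0.0517 without CD11cloMinclelo replicates 1 and 3. The difference ranged from 1.60 to 2.02 over these fits. Without a mean-variance trend in limma the adjusted p was 0.128.

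Il7r was the only one of these chains whose place among all genes moved far between the groups. Its mean level exceeded that of 75.3% of genes in CD11chiMinclehi macrophages and of 50.1% in CD11cloMinclelo macrophages. By comparison, Il10ra exceeded 97.8% and 98.7% of genes, and Il6st 56.4% and 57.3%. Those ranks are descriptions and were not tested.

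Il7r marks T cells and innate lymphoid cells, so markers of these cells were read in the same libraries. The gate had left out cells with surface markers of T, B and NK cells. Of 14 T cell markers 13 were in the table, and none of them passed in limma in either direction, also at an unadjusted p under 0.05. Their summed level was 23.3, 367 and 112 TPM in CD11chiMinclehi libraries and 11.6, 540.1 and 187 TPM in CD11cloMinclelo libraries. Within pairs, the sum was higher in the CD11chiMinclehi library of replicate 1 and lower in those of replicates 2 and 3. In the first pair the summed T cell markers were lowest. There the CD3 genes Cd3d, Cd3e and Cd3g were at 0, 0.371 and 0 TPM in the CD11chiMinclehi library. They were at 0.365, 0 and 0 TPM in the CD11cloMinclelo library. Other T cell markers of this pair differed either way. With the CD11chiMinclehi library first, Cd4 was at 12.2 and 3.99 TPM and Trac at 3.94 and 0 TPM. Lck was at 0 and 1.78 TPM and Cd28 at 0.877 and 2.50 TPM. Cd4 had its highest CD11chiMinclehi level in this pair. Il7r stood at 78.7 and 21.0 TPM in these 2 libraries. The sum over the innate lymphoid and NK cell markers was 390 to 577 TPM in CD11chiMinclehi libraries and 420 to 688 TPM in CD11cloMinclelo libraries, of which Id2, a gene that macrophages also express, gave 310.1 to 374 TPM over the 6 libraries. None of its 14 genes passed in limma without a block, and 1, the NK and T cell receptor gene Klrk1, was lower at an unadjusted p under 0.05. Klrk1 was called lower with the replicate block (-1.11, adjusted p = 0.0405 in limma). Without the replicate 2 libraries, which had the highest T cell marker sum in each group, the Il7r difference was 2.09 and its adjusted p in limma was 0.183, with 2 libraries left in each group. That fit was chosen after the data were seen. The part of T cells and innate lymphoid cells in the Il7r level was not tested.

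**Figure D2:**
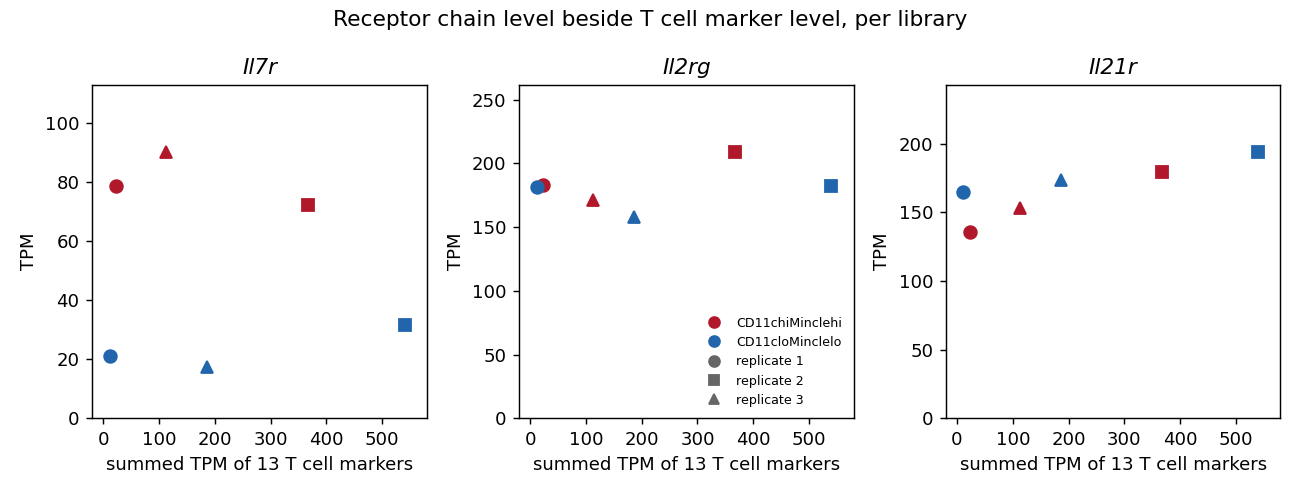
Levels of Il7r, Il2rg and Il21r in TPM against the summed TPM of 13 T cell markers in each of the 6 libraries. Each point is 1 library, and its shape gives the replicate number. The libraries of the first pair had T cell marker sums of 23.3 and 11.6 TPM and Il7r levels of 78.7 and 21.0 TPM.

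Markers of other cells that can carry interleukin receptors were also summed. Dendritic cell markers reached 228 to 368 TPM in CD11chiMinclehi libraries and 205 to 496 TPM in CD11cloMinclelo libraries. Hepatocyte markers were at 907 to 1664 TPM and 1007 to 1396 TPM, and neutrophil markers at 2.23 to 141 TPM and 13.5 to 143 TPM. Of the 8 hepatocyte and 7 neutrophil markers none passed in limma, also at an unadjusted p under 0.05. B cell markers came to 314 to 406 TPM and 315 to 487 TPM, and monocyte markers to 796 to 1181 TPM and 941 to 1418 TPM. These ranges overlapped. None of the 7 monocyte markers passed in limma without a block, where 1 was lower at an unadjusted p under 0.05, and Plac8 was called lower with the block (-1.71, adjusted p = 0.0150 in limma). The sums of Kupffer cell markers did not overlap, at 426 to 835 TPM in CD11chiMinclehi libraries and 1299 to 2310 TPM in CD11cloMinclelo libraries. None of the 8 Kupffer cell markers passed in limma, where 6 were lower at an unadjusted p under 0.05, and 5 were called lower with the replicate number as a block. Markers of endothelial and stellate cells summed to 139 to 202 TPM and 192 to 314 TPM, and 7 of these 8 genes had a difference below 0. Dcn, which encodes the matrix protein decorin, was called lower in limma (-0.65, adjusted p = 0.0253), and with the block Col3a1, a collagen gene, was called lower as well (-0.94, adjusted p = 0.0358). The gate was set to leave out Tim4+ resident Kupffer cells and, by low Ly6C, Ly6Chi monocytes. The part of these cells in the receptor levels was not tested.

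The promoters of Il7r, of its partner Il2rg and of Il13ra1, the chain with the lowest difference, are shown because the 3 differences had unlike sizes and signs. Sequences are from RefSeq on GRCm38.p6, read on the strand of the gene, and cover the 250 bases before the annotated start, with CpG dinucleotides in capitals. They lie at chr15:9529877-9530126 on the minus strand for Il7r, chrX:101268256-101268505 on the minus strand for Il2rg, and chrX:36111858-36112107 on the plus strand for Il13ra1.
Il7r: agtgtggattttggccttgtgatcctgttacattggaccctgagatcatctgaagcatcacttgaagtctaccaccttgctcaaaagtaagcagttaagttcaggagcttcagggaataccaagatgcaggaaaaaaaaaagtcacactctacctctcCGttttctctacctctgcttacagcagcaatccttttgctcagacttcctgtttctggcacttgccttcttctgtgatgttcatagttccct
Il2rg: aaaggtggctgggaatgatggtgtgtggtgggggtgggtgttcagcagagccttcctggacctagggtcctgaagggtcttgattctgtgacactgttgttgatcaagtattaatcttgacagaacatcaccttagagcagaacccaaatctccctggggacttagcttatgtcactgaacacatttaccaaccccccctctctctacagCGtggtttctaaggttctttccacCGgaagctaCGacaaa
Il13ra1: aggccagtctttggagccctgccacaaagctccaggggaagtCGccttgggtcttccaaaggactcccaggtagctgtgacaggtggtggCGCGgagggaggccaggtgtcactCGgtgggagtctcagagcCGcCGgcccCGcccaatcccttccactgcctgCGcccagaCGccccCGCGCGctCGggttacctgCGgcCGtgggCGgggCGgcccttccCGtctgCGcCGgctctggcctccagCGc
The Il7r window held 1 CpG and that of Il2rg held 3, whereas that of Il13ra1 held 21. The median over 32851 promoter windows of this length was 6. Of all windows 7.87% had fewer CpGs than that of Il7r, and 83.7% had fewer than that of Il13ra1. G and C made up 44.0%, 49.2% and 70.8% of the bases of the Il7r, Il2rg and Il13ra1 windows. Of the Il7r window, 86 of the 250 bases also lie in an exon of a GENCODE transcript. GENCODE places the start of Il7r on the minus strand at chr15:9530176, so the whole window lies within the GENCODE gene.

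Promoter windows were available for 7 of the 10 chains and were searched on both strands for 4 motifs. These were the STAT motif TTCNNNGAA, held by 7.02% of all windows, the AP-1 motif TGANTCA (6.75%), an NF-kappaB motif (1.41%) and the EGR motif GCGTGGGCG (0.536%). The only match among the 7 windows was TTCAGGGAA in that of Il7r, whose first base lies 142 bases before the RefSeq start. That base lies within the GENCODE gene. Of the Il4ra window, 151 of the 250 bases lie in a GENCODE exon. A match is a run of letters and not a measured binding site.

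The common gamma chain gene Il2rg did not follow Il7r. Its level was 183, 209 and 171 TPM in CD11chiMinclehi libraries and 182, 182 and 158 TPM in CD11cloMinclelo libraries. The groups overlapped, although the CD11chiMinclehi library was the higher one in 3 of 3 pairs. The difference was 0.11 ± 0.09, with a 95% confidence interval of -0.10 to 0.32 and an adjusted p of 0.721 in limma. Crlf2 encodes the chain that pairs with the Il7r product to bind TSLP, and was singled out for this role outside the rule for named genes. It was 125, 129.8 and 118 TPM in CD11chiMinclehi libraries and 121, 123 and 108 TPM in CD11cloMinclelo libraries. Its difference of 0.09 ± 0.08 did not pass (adjusted p = 0.731 in limma).

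Il21r, whose product takes the common gamma chain as its partner for IL-21, was 136, 179.7 and 153 TPM in CD11chiMinclehi libraries and 165, 194 and 173 TPM in CD11cloMinclelo libraries. The groups overlapped, and the CD11chiMinclehi library was the lower one in every pair. The difference of -0.19 ± 0.11 had a 95% confidence interval of -0.44 to 0.07 and an adjusted p of 0.546 in limma. Its highest library in each group was replicate 2, which was also the highest in T cell markers. The part of these cells in the Il21r level was not tested.

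Il13ra1, which completes the IL-13 receptor, was 177, 184 and 172 TPM in CD11chiMinclehi libraries and 236, 221 and 208 TPM in CD11cloMinclelo libraries. The groups did not overlap, and within pairs the CD11cloMinclelo library was 1.33, 1.20 and 1.21 times as high. The difference of -0.32 ± 0.06, with a 95% confidence interval of -0.46 to -0.17, did not pass in limma without a block (adjusted p = 0.0686) and passed with the replicate number as a block (adjusted p = 0.0384). Its chain partner Il4ra was 160.2, 148 and 164 TPM in CD11chiMinclehi libraries and 182, 178 and 165 TPM in CD11cloMinclelo libraries. These libraries did not overlap either, but the highest of the former and the lowest of the latter were less than 1 TPM apart. The Il4ra difference of -0.15 ± 0.07 had a 95% confidence interval of -0.31 to 0.01 and did not pass (adjusted p = 0.419 in limma).

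The IL-10 receptor held the most abundant chain. Il10ra, the ligand-binding chain, was 342, 316 and 346 TPM in CD11chiMinclehi libraries and 394, 376 and 389 TPM in CD11cloMinclelo libraries. The groups did not overlap. The difference of -0.21 ± 0.05, with a 95% confidence interval of -0.32 to -0.09, did not pass in limma without a block (adjusted p = 0.111) and passed with it (adjusted p = 0.0475). Il10rb, the second chain of this receptor, which other cytokines of the IL-10 family also use, was 255, 249 and 258 TPM against 275, 245 and 266 TPM. Those groups overlapped, and the difference of -0.04 ± 0.06 had a 95% confidence interval of -0.17 to 0.09 (adjusted p = 0.831 in limma). With the block, limma called 1 of the 10 chains as higher and 2 as lower, against 1.67% and 1.75% of all genes and 3.42% in either direction. That share rose with the level, to 7.19% of genes at 100 to 200 TPM, where Il13ra1 lay, and to 11.0% at 200 to 400 TPM, where Il10ra lay. Without the block the shares called were 1.70% at 50 to 100 TPM, where Il7r lay, 2.61% and 4.39%.

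**Figure D3:**
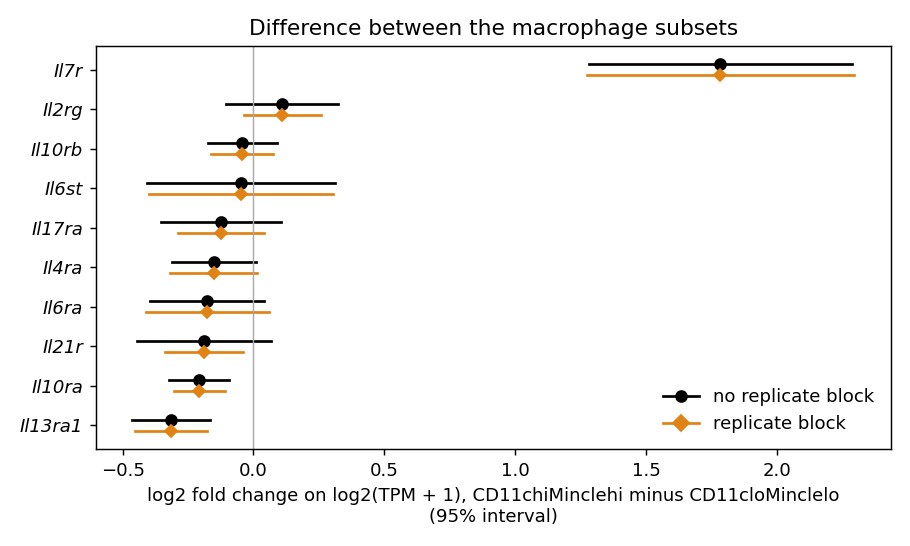
Difference of each receptor chain between CD11chiMinclehi and CD11cloMinclelo macrophages on the log2(TPM + 1) scale with its 95% confidence interval from limma, without and with the replicate number as a block. Il7r lay at 1.78, and the intervals of Il10ra and Il13ra1 lay below 0 in both fits.

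The chains of the IL-6 receptor were the least abundant besides Il7r. Il6ra, which binds IL-6, was 57.5, 55.9 and 58.9 TPM in CD11chiMinclehi libraries and 69.2, 63.3 and 62.8 TPM in CD11cloMinclelo libraries. The groups did not overlap, but the difference of -0.18 ± 0.09 did not pass (95% confidence interval -0.39 to 0.04, adjusted p = 0.495 in limma). Il6st, the signaling chain shared by the IL-6 family, was 31.6, 32.7 and 33.5 TPM against 28.6, 39.6 and 33.8 TPM. The CD11cloMinclelo libraries spanned all of the CD11chiMinclehi values. The difference of -0.05 ± 0.16 had a 95% confidence interval of -0.41 to 0.31 (adjusted p = 0.949 in limma), and its sign turned to 0.06 without CD11cloMinclelo replicate 2.

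Il17ra, the signaling chain for IL-17A, was 138, 114 and 131 TPM in CD11chiMinclehi libraries and 154, 130.4 and 134 TPM in CD11cloMinclelo libraries. The groups overlapped, although the CD11chiMinclehi library was the lower one in each pair. The difference of -0.12 ± 0.10 had a 95% confidence interval of -0.35 to 0.10 and did not pass (adjusted p = 0.697 in limma).

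Since TPM is scaled by gene length, the levels of different chains could be set in order. These TPM were computed after removal of PCR duplicates, and the highest gene of each library stood at 1184 to 1382 TPM. Whether that removal compressed the levels of abundant genes, and with them this order and the ratios of chains, was not tested. In CD11chiMinclehi macrophages the mean levels ran from Il10ra and Il10rb through Il2rg, Il13ra1, Il4ra, Il21r and Il17ra down to Il7r, Il6ra and Il6st. The ranges of the 3 libraries overlapped between Il2rg and Il13ra1, between Il4ra and Il21r, and between Il21r and Il17ra, so these neighbours could not be ordered. In CD11cloMinclelo macrophages the order was Il10ra, Il10rb, Il13ra1, Il21r, Il4ra, Il2rg, Il17ra, Il6ra, Il6st and Il7r. There the overlapping neighbours were Il21r and Il4ra, Il4ra and Il2rg, and Il6st and Il7r. Il7r was thus last with a mean of 23.3 ± 7.43 TPM (SD, n = 3) in CD11cloMinclelo macrophages and stood above Il6ra and Il6st in CD11chiMinclehi macrophages with a mean of 80.4 ± 9.11 TPM (SD, n = 3).

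The balance between chains that work together was compared as the ratio of their TPM within each library, for 6 pairs of chains. With 3 libraries against 3, the exact permutation test could not give a p below 0.1, so no ratio could pass a threshold of 0.05. The ratio of Il7r to Il2rg was 0.429, 0.346 and 0.527 in CD11chiMinclehi libraries and 0.116, 0.173 and 0.109 in CD11cloMinclelo libraries. The groups did not overlap, and the log2 ratio differed by 1.72 (two-sided exact permutation p = 0.1, adjusted p = 0.15 over the 6 ratios). In neither group did Il7r reach the level of its partner.

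The other chains that use the common gamma chain stood lower relative to it in CD11chiMinclehi macrophages. The ratio of Il21r to Il2rg was 0.832 ± 0.0799 against 1.02 ± 0.10 (SD, n = 3 each), and that of Il4ra to Il2rg was 0.846 ± 0.128 against 1.01 ± 0.0332 (SD, n = 3 each). The ratio of Il10ra to Il10rb was 1.32 ± 0.0408 against 1.48 ± 0.0522 (SD, n = 3 each). None of these 3 ratios overlapped between the groups, and each had the smallest p the design allows (exact permutation, p = 0.1, adjusted p = 0.15). With 3 libraries in each group, that p restates the lack of overlap. Of single genes 18.5% did not overlap, and the share among ratios of other gene pairs was not determined. The Il21r and Il4ra ratios share Il2rg, so they are not separate observations. The ratio of Il4ra to Il13ra1 was 0.887 ± 0.0765 against 0.790 ± 0.0159, with overlapping libraries (SD, n = 3 each, exact permutation p = 0.2, adjusted p = 0.24). That of Il6ra to Il6st was 1.76 ± 0.0550 against 1.96 ± 0.418 (SD, n = 3 each, exact permutation p = 0.7).

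**Figure D4:**
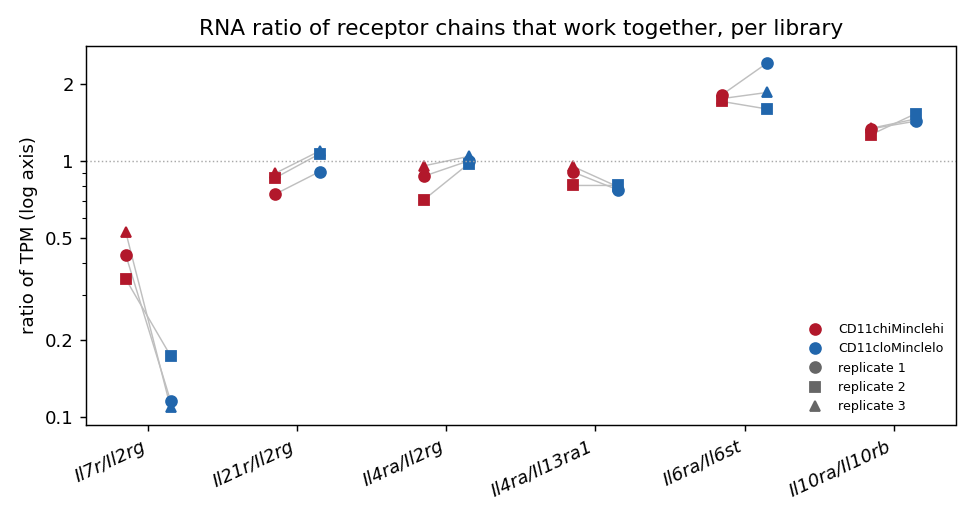
Ratio of the TPM of 2 chains in each library for 6 receptor pairs, on a log axis. Each point is 1 library, and each grey line joins the libraries that share a replicate number. The ratio of Il7r to Il2rg lay between 0.346 and 0.527 in CD11chiMinclehi libraries and between 0.109 and 0.173 in CD11cloMinclelo libraries.

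Other receptor chains were read from a list of 41 further interleukin, interferon and colony-stimulating factor receptor genes, of which 27 were in the table. None passed in limma without a block, where 6 were higher and 3 lower at an unadjusted p under 0.05, a level that 12.9% of all genes reached. Their median difference was -0.09, with 13 above 0 and 14 below. Only Il27ra was called with the replicate block. Its product joins gp130, the chain encoded by Il6st, to form the receptor for IL-27. Il27ra was 31.0, 44.0 and 42.8 TPM in CD11chiMinclehi libraries and 12.2, 23.1 and 14.4 TPM in CD11cloMinclelo libraries. The groups did not overlap, and the difference of 1.23 ± 0.26 had an adjusted p of 0.0783 in limma without the block and of 0.0194 with it. The difference of Il27ra had the sign of that of Il7r, while that of Il6st was -0.05. The lymphocyte chain Il2rb, which with Il2rg binds IL-2 and IL-15, was 1.90, 33.4 and 21.8 TPM against 0.275, 57.1 and 20.9 TPM. Its level followed the replicate number rather than the group.

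Few ligands of these receptors could be compared, since 10 of 24 listed genes were in the table and the other 14, Il7, Il4, Il13 and Il21 among them, were not analysed here. None of the 10 passed in limma without a block, where none was higher and 3 were lower at an unadjusted p under 0.05, against 12.9% of all genes in either direction. Il10 was 46.4, 23.8 and 50.3 TPM in CD11chiMinclehi libraries and 77.4, 50.9 and 93.1 TPM in CD11cloMinclelo libraries. The CD11chiMinclehi library was the lower one in every pair. The difference of -0.89 ± 0.32 did not pass in limma without the block (adjusted p = 0.284) and passed with it (adjusted p = 0.0135). Il10 and the chain Il10ra were therefore both called lower with the replicate block.

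Il6 was 17.7, 12.6 and 17.8 TPM against 28.2, 22.6 and 39.3 TPM, a difference of -0.85 that did not pass (adjusted p = 0.196 in limma). Il15, whose product signals through the common gamma chain, was 42.6, 54.1 and 41.6 TPM against 76.9, 64.6 and 81.4 TPM. Those libraries did not overlap, and the difference of -0.68 ± 0.14 did not pass in limma (adjusted p = 0.0739, and 0.0702 with the replicate block). Tslp was at 1.93, 0.512 and 0.480 TPM against 2.10, 0.910 and 8.94 TPM. Il17a was listed at 0, 4.93 and 1.38 TPM in CD11chiMinclehi libraries and at 0 in every CD11cloMinclelo library.

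No signaling gene downstream of these chains was called without a block. All 25 listed JAK, STAT and SOCS pathway genes were in the table, and in limma none was higher and 3 were lower at an unadjusted p under 0.05, a share near the 12.9% of all genes. Jak1, the kinase bound by Il7r and Il4ra, was 305, 299.8 and 292 TPM against 286, 292 and 273 TPM, a difference of 0.08 (adjusted p = 0.579 in limma). Jak3, the kinase of the common gamma chain, was 55.3, 90.7 and 69.9 TPM against 60.1, 87.8 and 73.6 TPM, with overlapping groups and its highest library in replicate 2 of each. Jak2, Tyk2 and Stat3 differed by 0.09, -0.06 and -0.09 (adjusted p = 0.828, 0.869 and 0.661 in limma). Of the STAT genes downstream of IL-7 and IL-4, Stat5a was 78.2, 72.1 and 60.7 TPM against 76.5, 52.8 and 43.1 TPM (adjusted p = 0.60 in limma). Stat5b was 112, 97.2 and 97.0 TPM against 100, 113 and 95.5 TPM, a difference of -0.01 (adjusted p = 0.983 in limma). Stat6 was 351, 358 and 359.6 TPM against 345, 353 and 352 TPM (adjusted p = 0.869 in limma). Stat2, which serves the interferon receptors, was 127, 148 and 126 TPM against 166, 185 and 195 TPM. Its groups did not overlap, and the difference of -0.44 ± 0.09 had an adjusted p of 0.0725 in limma without the block and of 0.0345 with it.

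**Figure D5:**
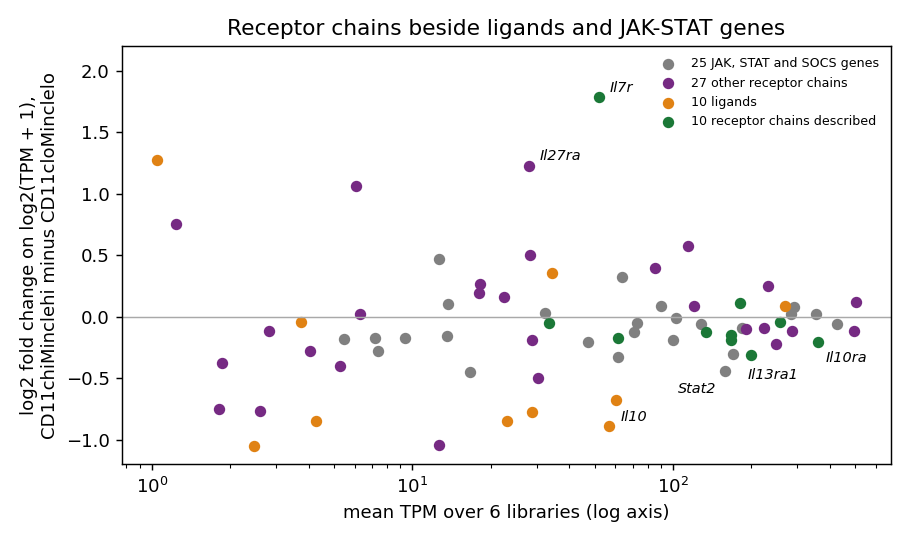
Difference on the log2(TPM + 1) scale against the mean TPM over 6 libraries (log axis) for the 10 receptor chains, 27 other receptor chains, 10 ligands and 25 JAK, STAT and SOCS genes, where each point is 1 gene. Il7r at 1.78 stood highest, Il27ra followed among the better expressed receptor chains at 1.23, and Il10 lay at -0.89.

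The genes whose pattern over the 6 libraries was most like that of Il7r were sought among 9666 genes with a mean of at least 10 TPM. Likeness was the root mean square difference between profiles of log2(TPM + 1), each centred on its mean. The closest was Akr1b8, an aldo-keto reductase gene, at 0.22, followed by Lrrc32 at 0.25, Penk at 0.26, Acss2 at 0.28 and Gas7 at 0.28. Lrrc32 encodes GARP, which holds latent TGF-beta at the cell surface, Penk encodes proenkephalin, and Acss2 encodes an enzyme that makes acetyl-CoA from acetate. Akr1b8 was 205, 231 and 191 TPM in CD11chiMinclehi libraries and 50.8, 80.8 and 57.6 TPM in CD11cloMinclelo libraries. Like Il7r, its highest CD11cloMinclelo library was replicate 2. Since a likeness to Il7r implies a rise in CD11chiMinclehi libraries, these patterns are descriptions and were not tested.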

How the data were processed

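Liver macrophages sorted from WT mice on CDA-HFD were measured by poly(A) RNA-seq. Per the submitters' processing notes and the study's methods, the authors used Trimmomatic 0.39.0, HISAT2 2.2.1 on GRCm38 (mm10), removal of PCR duplicates, and featureCounts 2.0.1. From its counts the authors computed the TPM they deposited. The annotation release and strand setting were not given in the sources used here. Depth, which TPM does not keep, was inferred from the spacing of low values and gene lengths of GENCODE mouse release 21. With these, 78.3% to 84.7% of low values came to a whole number of reads within 0.05.

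Genes were tested as log2(TPM + 1), which understates the change of low genes, with limma 3.58.1 in R 4.3.3. The fit was two-sided with a mean-variance trend, over both groups and all 16503 genes, whose lowest mean was 1.00 TPM. P-values were adjusted by Benjamini-Hochberg. Ratios were tested by exact permutation in scipy 1.17.1. The limma fit was also run on simulated data without a replicate effect, unlike these libraries, and no conclusion is drawn from that run. Groups came from the sample titles, which call the libraries biological replicates, and p-values measure the spread between these libraries. Whether libraries of 1 number came from 1 mouse is not stated for the RNA-seq. For qPCR and ELISA of the same sorted subsets, the study used paired t-tests. Deviations from the group means correlated at 0.61, 0.39 and 0.23 for replicates 1, 2 and 3 over 10418 genes. Between unlike numbers the correlations ran from -0.45 to 0.15. Since the deviations within a group sum to 0, the correlations of like and unlike numbers are not separate observations. Libraries of the same number were therefore described as pairs, and an alternative fit took the replicate number as a block. The main fit and the main permutation tests of the ratios did not use the pairs. The share of all genes that went the same way in every pair was not determined. The fit with the replicate number as a block is given where it changed the call of a listed gene, and for Kupffer cell markers as a count.

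Named genes were the 10 receptor chains, listed pathway genes that passed in either fit, ligands and kinases of the chains, the gate genes, and the 5 genes most like Il7r. Members and lists were chosen with earlier results of these data known. Alternatives were a pseudocount of 0.1 or 5, a mean of at least 5 TPM, no variance trend, factors by trimmed mean of M values, the block, and libraries left out in turn. Promoters came from RefSeq.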

Additional observations from a re-analysis of the deposited data

How the results depend on the processing

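With a pseudocount of 0.1 or 5, a mean of at least 5 TPM, or factors by trimmed mean of M values, the direction and call of each of the 10 receptor chains were those reported. Without a variance trend limma called 8 genes as higher and 11 as lower, against 127 and 75, and 0 receptor chains as higher (1 at an unadjusted p under 0.05), with Il7r at 1.78. With the replicate block it called 275 higher and 289 lower, and 2 receptor chains as lower, Il10ra and Il13ra1, and changed no other call among the 10. Leaving out single libraries gave 4 to 40 genes higher, 2 to 52 lower, 0 to 1 receptor chains higher, and an Il7r difference of 1.60 to 2.02. Without replicate 2 of both groups limma called 0 genes as higher, 0 as lower and 0 receptor chains as higher, while 908 and 846 genes and 1 chain as higher reached an unadjusted p under 0.05. In that fit the Il7r difference was 2.09 and that of Il6st turned to 0.062. With single libraries left out Il6st ran from -0.16 to 0.064, above 0 without CD11cloMinclelo replicate 2, and the log2 difference of the Il6ra to Il6st ratio ran from -0.26 to 0.033, above 0 without CD11cloMinclelo replicate 1. These ratios could not pass in any setting, since the smallest exact permutation p was 0.1 with all libraries, 0.2 with 1 left out and 0.25 within pairs. Fewer libraries remained in the fits that left libraries out, and the cause of the other changes was not tested. The estimated reads behind Il7r, 136 to 778, make it the chain with the largest counting error in the CD11cloMinclelo libraries.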

Other observations

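Some of these receptor genes lie beside other receptor genes in the genome (GRCm38, GENCODE release 21). Il4ra, at chr7:125552120-125579474 on the plus strand, is followed after 24.0 kb by Il21r, at chr7:125603429-125633570 on the same strand. Both were lower in the CD11chiMinclehi library of every pair, although Il4ra was at 164 and 165 TPM in the libraries of replicate 3. Their mean differences were -0.15 and -0.19 on the log2 scale, and neither passed in limma (adjusted p = 0.419 and 0.546).

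Il10rb, at chr16:91406164-91425834 on the plus strand, starts 575 bases after the end of Ifnar2, which encodes a chain of the type I interferon receptor, and is followed by Ifnar1 and Ifngr2. Ifnar2 was 245, 218 and 227 TPM in CD11chiMinclehi libraries and 276, 259.6 and 269 TPM in CD11cloMinclelo libraries, without overlap. Its difference of -0.22 did not pass in limma (adjusted p = 0.153, and 0.0672 with the replicate block). The groups of Il10rb overlapped, with a difference of -0.04. These neighbours were chosen for their position, outside the rule for named genes.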
